A study of Owenia fusiformis with 9 samples.

Results

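The head-restricted transcripts of the adult annelid *Owenia fusiformis* are 200 of the 31911 transcripts measured in 9 adult RNA-seq libraries. They were chosen by their measured values. A transcript qualified when its head value was 100 or more and when the head value plus 10 was at least 5 times the highest of the other 8 libraries plus 10, the head plus chaetae library included. This gave 375 transcripts, 1.18% of all transcripts and 3.45% of the 10882 with a head value of 100 or more, and the 200 with the largest ratio were kept. Every level given here is the deposited DESeq2-normalized value, a read count divided by the size factor of its library, and the head value and the ratio of the members describe the choice and support no test. The head and the tail came from a pool of 5 adult females, the midgut, ovary and body wall from 1 female, and the blood vessel, testis, retractor muscle and head plus chaetae from 1 male. The design text lists muscle under both single worms and chaetae under the male, so the worm behind the head plus chaetae, body wall and retractor muscle libraries was assigned here by the sex in the labels. All worms were adults with no treatment named, held in artificial sea water with mud and fed algae before dissection. Each tissue has 1 library, so no value has a replicate, and the pool, the sex and the dissected tissue cannot be told apart between head and head plus chaetae. The source texts differ on the anterior samples: the methods list a prostomium and a head in one place and a head and a head with the foremost segments in another. The labels were followed here.

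*O. fusiformis* lives in a tube of sand grains in marine sediment. The head of the adult carries the mouth and a crown of ciliated, branched lobes used for feeding, and an annelid head also holds the brain and sense organs. Chaetae are the chitinous bristles of annelid segments, made by follicle cells in the body wall. A transcript found in a dissected head and not in the trunk, the internal organs or a second anterior sample can come from any of its cells, and in bulk tissue fewer cells of a type and less RNA per cell cannot be told apart. None of the 31911 identifiers matched any of 27038 annotated genes in the table of this species, so the members are given by identifier and no gene name, function, sequence or genome position is assigned to them. For the same reason the head label could not be checked against marker genes, and it was set only against the head plus chaetae library.

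The libraries held between 14608988 and 22177997 approximate reads, as recovered from the steps between low values, with 16618889 in head. One read was worth 0.598 in head, 0.600 in head plus chaetae, 2.75 in retractor muscle and 5.53 in testis. As the floor for a library with no read, 3 reads were used, which is a level of 1.80 in head plus chaetae, 2.15 in tail, 8.25 in retractor muscle and 16.6 in testis. The upper bound of the exact Poisson interval at no read is a little higher, at 2.21 in head plus chaetae, 2.64 in tail, 10.1 in retractor muscle and 20.4 in testis. Low levels were therefore less detectable in the testis and the retractor muscle than in the other libraries. All intervals below are exact Poisson intervals at 95% on the recovered reads and cover counting error only.

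In the head, the 200 members ranged from 101.1 to 64769 with a median of 537. Of these, 9 lay above 10000, 67 between 1000 and 10000 and 124 below 1000, among them 42 below 200. Together they made up 4.62% of the summed head values, and the 10 most abundant held 47.5% of the members' own sum. Only 1 member was among the 10 most abundant transcripts of the head library, 5 were among the first 100 and 70 among the first 1000. Most members were thus of moderate abundance in the head, and a few were among its leading transcripts. Outside the head the members took 0.137% of the head plus chaetae library, 0.0290% of the tail and 0.0362% of the midgut. They took 0.0160% of the body wall, 0.0132% of the ovary and 0.0130% of the blood vessel. The share was 0.00516% in retractor muscle and 0.000640% in testis. A single member, OFUSG21353.1, held 7078 of the members' sum of 15662.5 in head plus chaetae. It also held 2719.7 of 4397 in midgut and 1674 of 2915 in retractor muscle. The shares in these libraries thus rest in large part on that member.

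The median level of the members was 6.59 in head plus chaetae, 1.44 in tail, 1.38 in ovary, 1.19 in body wall, 0.955 in blood vessel and 0.331 in midgut. It was 0 in retractor muscle and the testis. Over all 10882 transcripts with a head value of 100 or more, the medians were 253 in head and 215 in head plus chaetae, and between 138, in the testis, and 201, in the tail, in the other 7. The rule fixes that the members are lower there. What it leaves free is how the remaining signal is spread, and the head plus chaetae carried the most of it, with more than 3 reads for 133 members, against 88 in ovary, 85 in tail, 72 in body wall, 71 in blood vessel and 58 in midgut. In the retractor muscle 31 members had more than 3 reads and in the testis 9, at a higher value per read. The same counts over the 10882 transcripts were not taken. Among the 8 libraries the head plus chaetae also had the highest median over these transcripts and the fewest without a read, 0.882%. A lead of this library was thus seen over all such transcripts too. It was the second highest library for 37.5% of members and 19.3% of all such transcripts, a difference that was not tested.

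**Figure D1:**
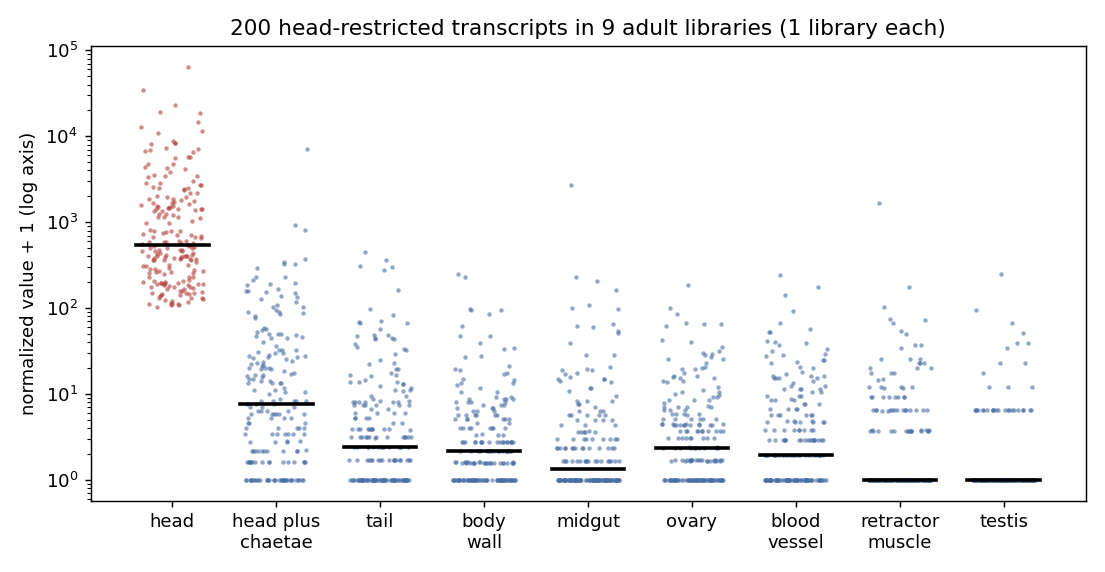
Normalized value plus 1 on a log axis (y) of each of the 200 members (points) in the 9 adult libraries (x), with the median as a bar and transcripts without a read at 1. The head median is 537 and the other medians lie between 0 and 6.59, with the head plus chaetae highest. The points at 7078 in head plus chaetae, 2719.7 in midgut and 1674 in retractor muscle are 1 transcript, OFUSG21353.1.

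The transcript with the largest ratio was OFUSG15205.1. Its head value was 8719.7, with an interval of 8579 to 8863, against 7.80 in head plus chaetae, 8.20 in retractor muscle and 5.53 in testis. The other values were 2.14 in tail, 1.37 in ovary, 1.33 in midgut, 0.95 in blood vessel and 0.596 in body wall. The head plus chaetae value rests on 13 reads, the retractor muscle value on 3 and the testis value on 1. Its ratio, the largest at 479.7, thus depends outside the head on a few reads and on the 10 added to each value. The added 10 exceeds the highest other value of 8.20.

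OFUSG24847.1 was more abundant still, with 18551 in head. Outside the head it had 64.8 in ovary, 36.0 in retractor muscle, 27.6 in head plus chaetae, 27.1 in midgut, 18.4 in body wall, 14.2 in blood vessel, 7.19 in tail and 5.53 in testis. It was thus read at a low level in every library, with no second library standing out by more than a few-fold. OFUSG07486.1 and OFUSG19417.1 were cleaner at a lower head level. OFUSG07486.1 had 2707 in head, 2.84 in blood vessel, 1.32 in midgut, 0.594 in body wall and 0 in the other 5. OFUSG19417.1 had 2825 in head, 4.17 in body wall, 3.0 in head plus chaetae, 0.686 in ovary, 0.663 in midgut and 0 in the other 4. No value of either transcript outside the head rested on more than 7 reads.

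OFUSG25782.1 had 4294 in head and its second highest value, 17.9, in the midgut, with at most 8.30 elsewhere. OFUSG24684.1 had 8409 in head and 48.1 in tail of the same worms, but 7.19 in head plus chaetae. Its values of 27.3 in ovary, 23.7 in blood vessel, 18.5 in midgut and 16.6 in retractor muscle also exceeded that of the head plus chaetae. OFUSG20323.2 was the opposite case. It had 7226 in head, 39.6 in head plus chaetae, an interval of 30.6 to 50.4, and 0 in all of the other 7. Both isoforms of OFUSG16951 and the transcript OFUSG04082.1, described further on, complete the 10 largest ratios. Of the 200 members, 15 had a ratio of at least 100, 64 a ratio between 20 and 100, 92 between 10 and 20 and 29 below 10. The median was 15.0, against 0.474 over all transcripts with a head value of 100 or more.

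The most abundant member, OFUSG21353.1, was number 5 of the whole head library and number 194 of the 200 by ratio. It had 64769 in head, 7078 in head plus chaetae, 2719.7 in midgut and 1674 in retractor muscle. The values were 308 in tail, 34.4 in ovary, 17.9 in body wall, 12.4 in blood vessel and 0 in testis. It held the highest level of any member in the head plus chaetae, the midgut and the retractor muscle. Its level in the head plus chaetae exceeded the head level of most members, so restriction here means a ratio and not absence.

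OFUSG04082.1 followed with 34199 in head, an interval of 33919.6 to 34481. It had 239 in blood vessel, 94.0 in testis, 38.9 in ovary, 13.2 in midgut, 13.2 in head plus chaetae, 5.75 in tail, 4.75 in body wall and 0 in retractor muscle. Against the head plus chaetae the head level was 2594 times higher, while the blood vessel of the same male had over 10 times the head plus chaetae level. OFUSG15747.1 had 23109 in head, 450.2 in tail, 229.6 in body wall, 20.4 in head plus chaetae, 19.9 in blood vessel, 13.0 in ovary, 5.50 in retractor muscle, 4.64 in midgut and 0 in testis. Its second signal lay in both trunk libraries, which come from females, and was an order of magnitude lower in the head plus chaetae.

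OFUSG16864.1 had 19275 in head and nearly equal values of 176 in retractor muscle and 167 in head plus chaetae, with at most 15.2 elsewhere. OFUSG04178.1 had 14544 in head, 322 in head plus chaetae and 277 in tail, with at most 27.3 elsewhere. OFUSG22420.1 had 12883 in head, 804 in head plus chaetae and 207 in midgut, with at most 32.2 elsewhere. In each of these members the highest levels outside the head, well below it, lay in the second anterior sample and 1 further tissue. That tissue differed between them, and lower values of more than 3 reads were found in other libraries too. OFUSG19927.1 and OFUSG11317.1 had no further tissue of this kind. OFUSG19927.1 had 11537 in head, 921 in head plus chaetae and at most 11.1 elsewhere, which is 2 reads of the testis. OFUSG11317.1 had 10932 in head, 211 in head plus chaetae and at most 2.98 elsewhere.

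**Figure D2:**
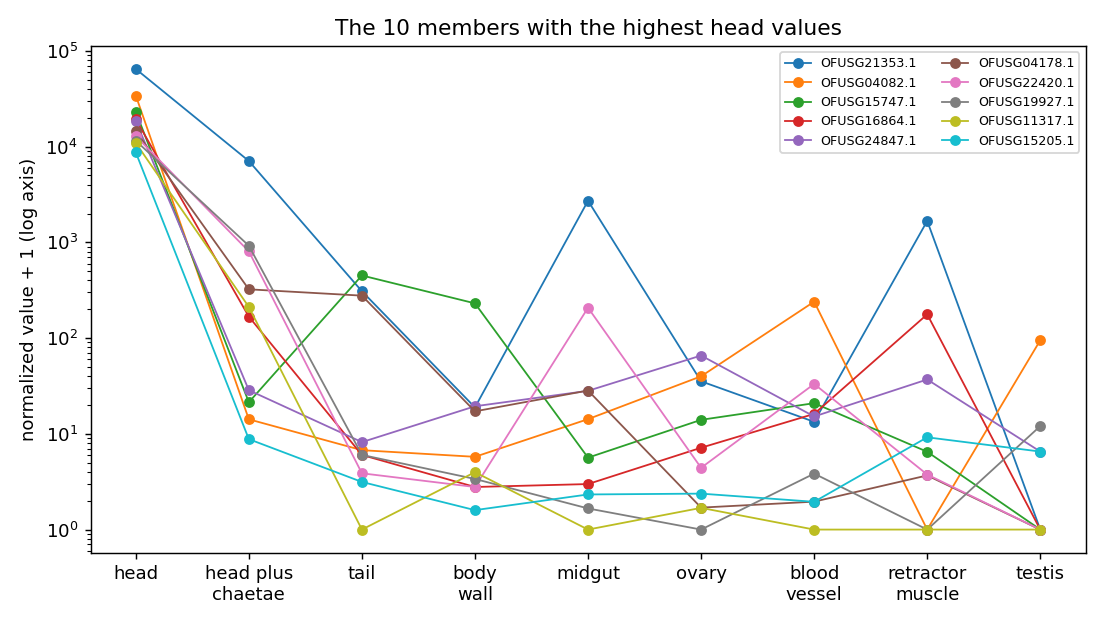
Normalized value plus 1 on a log axis (y) of the 10 members with the highest head values in the 9 adult libraries (x). Each line joins the values of 1 transcript and has no meaning between libraries, and transcripts without a read stand at 1. The head values lie between 8719.7 and 64769, and the second highest library differs between transcripts, with 450 in tail for OFUSG15747.1, 239 in blood vessel for OFUSG04082.1 and 64.8 in ovary for OFUSG24847.1.

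The head plus chaetae was the second highest library for 75 members, or 37.5%, and it held this place for 19.3% of all transcripts with a head value of 100 or more. The blood vessel followed with 28 members, then the ovary with 22, the midgut with 20, the tail with 19, the retractor muscle with 13, the body wall with 11 and the testis with 4, while 8 members had no read in any other library. The blood vessel held second place for 14% of members and 18.1% of all such transcripts, and the testis for 2% and 11.3%. The midgut, with 10% and 13.9%, and the ovary, with 11% and 13.7%, were also below their shares over all such transcripts. The tail held second place for 9.50% and 8.56%, the retractor muscle for 6.50% and 6.82%, and the body wall for 5.50% and 8.22%. The differences between these shares were not tested. Scaling to the library sum in place of the size factor shifted the testis by -3.62 and the retractor muscle by -2.51 on the log2 scale, and the other 6 libraries by between -0.48, in the blood vessel, and -0.04, in the body wall. On that scale the head plus chaetae was second for 81 members and for 23.5% of all such transcripts, the retractor muscle for 2 members and the testis for none. The order of the others changed, with the ovary second for 29 members, the tail for 24, the blood vessel for 23, the midgut for 19 and the body wall for 14. Over all such transcripts the shares on that scale were 18.9% for the ovary, 10.1% for the tail and 16.7% for the blood vessel. They were 15.2% for the midgut, 14.8% for the body wall, 0.524% for the retractor muscle and 0.266% for the testis. The order is firm only where the second value is more than a few reads. It rested on more than 3 reads for 73 of 75 members with the head plus chaetae second, for 19 of 19 with the tail, for 24 of 28 with the blood vessel and for 5 of 13 with the retractor muscle.

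The members with the tail second had a median tail level of 33.9, close to the median head plus chaetae level of 35.4 in the members with that library second. Those with the blood vessel second had a median of 14.3 there and 1.20 in head plus chaetae. Those with the midgut second had 17.9 in midgut and 2.70 in head plus chaetae. At most 3 reads were found in the head plus chaetae, the only other anterior sample, for 19 of the 28 members with the blood vessel second and for 10 of the 20 with the midgut second. The highest head plus chaetae levels in these groups were 31.2 and 100.7. The highest member in the body wall was OFUSG00781.1, with 4762 in head, 361 in tail, 251 in body wall, 232 in head plus chaetae, 19.3 in retractor muscle and at most 3.31 elsewhere. The highest in the ovary was OFUSG18223.3, with 4211 in head, 301 in tail, 188 in head plus chaetae, 183 in ovary, 95.0 in body wall and at most 28.3 elsewhere. Both were read in tail, body wall and head plus chaetae together, and in OFUSG18223.3 the ovary stood level with the head plus chaetae. The highest in the testis was OFUSG24353.1, with 4415 in head, 249 in testis, 162 in tail, 148 in head plus chaetae and 98.0 in body wall. It was the only member to reach 100 in testis.

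**Figure D3:**
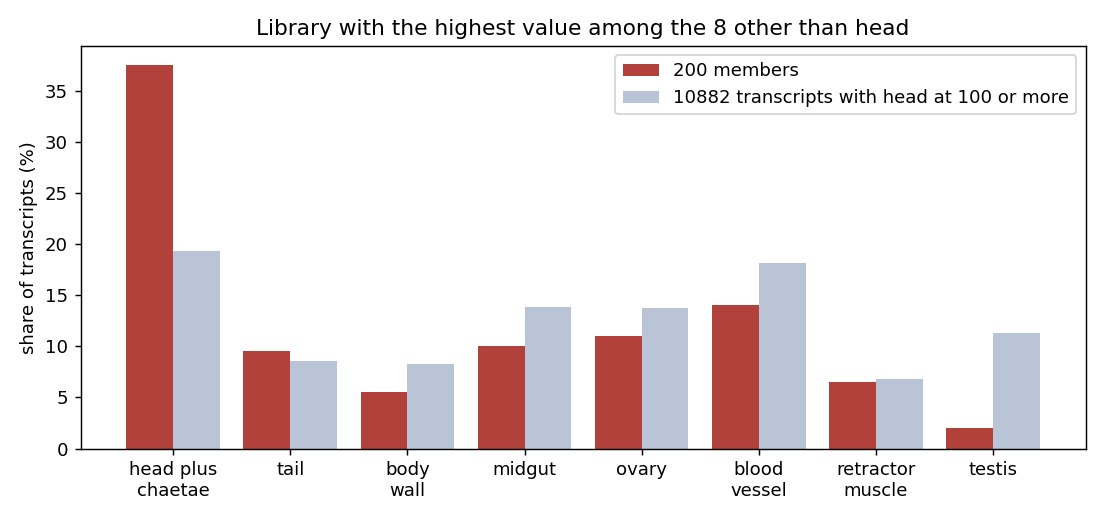
Share of transcripts in percent (y) for which each library (x) held the highest value among the 8 other than the head, for the 200 members (red bars) and for all 10882 transcripts with a head value of 100 or more (grey bars). The head plus chaetae leads in both, with 37.5% of members and 19.3% of all such transcripts.

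The highest level outside the head was at most 10 in 75 members and at least 100 in 33, with a median of 16.6. A level of at least 100 was reached by 26 members in the head plus chaetae, 6 in tail, 5 in midgut, 3 each in the blood vessel and the retractor muscle, 2 each in the body wall and the ovary, and 1 in testis. Over the 10882 transcripts with a head value of 100 or more, the median was above 100 in each of these libraries. It ran from 138 in testis to 215 in head plus chaetae. The second highest library was 1 of the 4 male libraries for 120 members and 1 of the 4 other female libraries for 72, or 60% and 36%, against 55.6% and 44.4% of all transcripts with a head value of 100 or more. Scaled to the library sum, the members split 106 to 86, or 53% and 43%, against 40.9% and 59.0%. Members also differed in how many other libraries held more than 3 reads. Of the 200, 30 had no other library with more than 3 reads, 36 had 1, 40 had 2 and 20 had 3, while 9 had 7 and none had all 8. The rule caps every other library and so favours low counts, and the same counts over the 10882 transcripts were not taken. The 8 members without a read in any of the other 8 libraries had head values between 107 and 789. OFUSG15059.1, the highest of them, named after its values were seen, had 1319 reads in the head and was at least 438-fold higher there than in the head plus chaetae, with 3 reads of that library as the floor, a fold that would be lower against the upper bound of the interval. At the other end of the 8, OFUSG07263.1 had 179 reads and was at least 59.6-fold higher. Over all members no read was found for 165 in testis, 127 in retractor muscle, 100 in midgut, 72 in blood vessel, 68 in tail, 67 in ovary, 63 in body wall and 35 in head plus chaetae. Those counts are out of 200. Over the 10882 transcripts they were 1809, or 16.6%, in testis and 96, or 0.882%, in head plus chaetae, the extremes. The shares over the 10882 were 7.82% in retractor muscle, 7.42% in blood vessel and 5.60% in midgut. They were 4.31% in ovary, 2.86% in body wall and 2.20% in tail. At the end of the set by ratio, the members just inside the limit were OFUSG07251.1 at 9.03, OFUSG14573.1 at 9.01 and OFUSG07737.1 at 8.98. Just outside lay OFUSG22826.1 at 8.88, OFUSG22456.1 at 8.85 and OFUSG01616.2 at 8.84, so that the limit cuts a continuous range.

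The head plus chaetae was then left out of the rule, and 826 transcripts qualified for the head against the other 7 libraries. The head value still had to be 100 or more and 5 times the others by the ratio. Transcripts high in the head plus chaetae and low in the head could not enter, so the ratios below lean towards the head. They do not measure how far the 2 anterior samples share transcripts. Within these the head ratio over the head plus chaetae was at least 5 for 375 transcripts, or 45.4%, between 2 and 5 for 217, between 1 and 2 for 97, and below 1, with the head plus chaetae higher, for 137. The median ratio was 4.20. The values fell in 1 broad range without a gap at the limit of 5, and 115 transcripts had a ratio of at least 20. The share with a ratio of at least 5 was 38.9% among the 36 with a head value of at least 10000, 46.5% among the 215 between 1000 and 10000 and 45.4% among the 575 below 1000. Members and shared transcripts thus occurred at every level of head abundance. Among the shared ones with the head plus chaetae higher, the 3 with the highest head values were OFUSG04097.1 with 80545 in head and 112168 in head plus chaetae, OFUSG03453.1 with 53009 and 82215, and OFUSG15430.1 with 46552 and 93496, all named after their values were seen. The members are 200 of the 375 at the other end of this range, and the 175 others with a ratio of at least 5 fell outside the limit of 200.

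**Figure D4:**
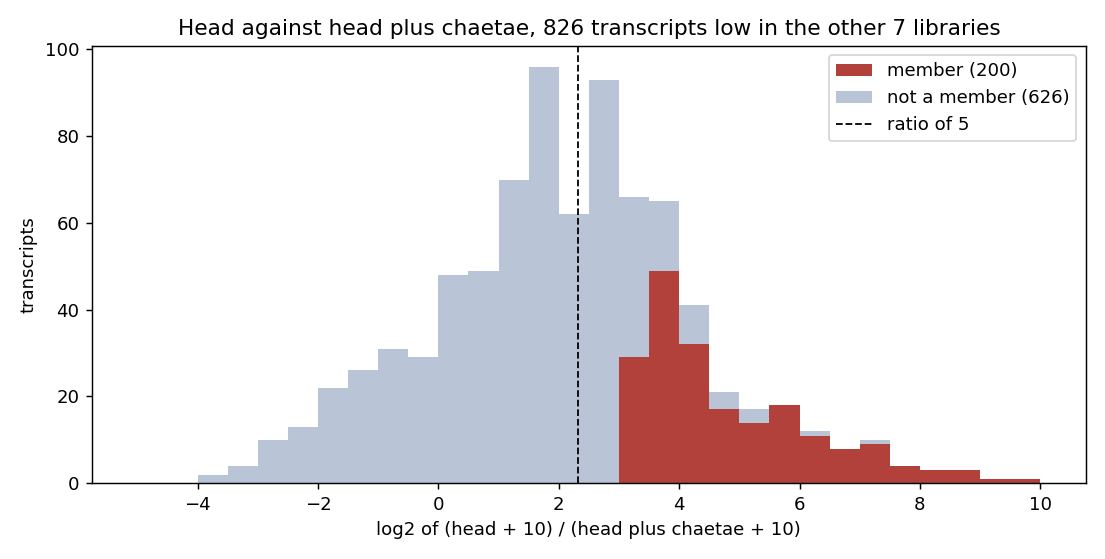
Number of transcripts (y) by the log2 ratio of head plus 10 over head plus chaetae plus 10 (x, bins of 0.5), for the 826 transcripts restricted to the head by the other 7 libraries. The 200 members are red, except that OFUSG04082.1, at a log2 ratio of 10.5, lies beyond the last bin and is not drawn. The grey bars hold the other 626, of which 175 lie at or beyond the dashed line that marks a ratio of 5. No gap separates the sides of the line.

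For the members themselves the head level was a median of at least 66.9 times that of the head plus chaetae and at least 108 times that of the tail, with the 67 and 115 members of up to 3 reads in these libraries set to 3 reads. The rule requires the head to be higher, so these folds describe the choice. Over all transcripts with a head value of 100 or more the same medians were 1.26 and 1.17. The size factors are meant to hold most genes level between libraries, so these medians do not measure how alike the tissues are. Compared with each other, the head plus chaetae level was higher than the tail level in 121 members, the tail level was higher in 55, and 24 had no read in either. The first of these is 60.5% of members and the second 27.5%, against 50.8% and 48.9% of all transcripts with a head value of 100 or more, and the difference was not tested. The tail shares its worms with the head, and the head plus chaetae does not. Among all transcripts with a head value of 100 or more, a ratio of at least 5 was found for 7.6% against the head plus chaetae, 14.7% against the tail and 18.8% against the body wall. It was found for 24.6% against the retractor muscle, 25.8% against the midgut, 27.3% against the ovary, 32.1% against the testis and 33.3% against the blood vessel. Scaled to the library sum, these shares were 62.1% against the retractor muscle and 85.5% against the testis, and 8.67% against the head plus chaetae, still the lowest. The head plus chaetae was thus the library from which the fewest transcripts of the head stood apart by this ratio, and its inclusion in the rule took the count from 826 to 375. Applied to each library in turn, the rule gave 928 transcripts for the blood vessel, 893 for the midgut, 375 for the head, 240 for the ovary, 230 for the testis, 201 for the head plus chaetae, 155 for the tail, 92 for the retractor muscle and 52 for the body wall.

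Isoforms, which the rule treats as separate, split some members from their genes. The 200 members belong to 189 genes, of which 153 have 1 isoform in the file and 36 have several. These 36 hold 47 members, 23.5% of the set, against 24.0% of all transcripts with a head value of 100 or more. In 10 genes more than 1 isoform was a member, and in 5 of them every isoform was. OFUSG16951 is the clearest of these. OFUSG16951.2 had 6952 in head, 19.8 in ovary, 8.51 in blood vessel, 2.88 in tail, 2.77 in retractor muscle, 0.599 in head plus chaetae and 0 in the other 3. OFUSG16951.1 had 2982 in head, 10.2 in ovary, 3.78 in blood vessel and at most 2.88 elsewhere. Both isoforms had the ovary second, and the sum of the gene reached 9934 in head and 30.0 in ovary. The isoforms of OFUSG11317 and OFUSG17658 were unequal. OFUSG11317.1 had 10932 in head and OFUSG11317.2 had 262, while OFUSG17658.2 had 3848 and OFUSG17658.1 had 112. OFUSG08359.2 had 1839 and OFUSG08359.1 395, and OFUSG21185.2 had 1248 and OFUSG21185.1 257. Reads that fit several isoforms are shared out by the pseudo-alignment, so levels of isoforms are estimates. OFUSG14709.2 and OFUSG14709.3, named after their values were seen, had the same value in every library other than the head. Such members may not be separate observations.

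With the isoforms of each gene summed, 28 of the 36 genes still met the rule and 8 did not. OFUSG16992 was the most abundant of the 8 in head. Its member OFUSG16992.1 had 1354 in head, 2.75 in retractor muscle, 1.99 in midgut, 1.78 in body wall, 1.37 in ovary and 0 in head plus chaetae and the other 3. The other isoform, OFUSG16992.2, had 6916 in head and 3161 in head plus chaetae, with at most 3.79 elsewhere. The gene as a whole was thus read in both anterior samples, and 1 of its isoforms above a few reads in the head alone, with a gene ratio of 2.61 against 107 for the member. In OFUSG11078 the member had no read in the head plus chaetae but more than a few reads in other tissues. OFUSG11078.2 had 1675 in head, 108 in midgut, 28.0 in tail, 16.6 in testis, 11.4 in blood vessel and 0 in the other 4. OFUSG11078.1 had 718 in head plus chaetae, 621 in head, 217 in body wall, 41.6 in ovary and at most 19.9 elsewhere.

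The other 6 genes that missed the rule as sums were OFUSG01190, OFUSG07825, OFUSG10091, OFUSG13041, OFUSG13586 and OFUSG25246, named after their values were seen. In OFUSG01190 the isoforms were exchanged between the anterior samples. OFUSG01190.3 had 202 in head and 0 in head plus chaetae, whereas OFUSG01190.2 had 0 in head and 836 in head plus chaetae. In OFUSG10091 the member OFUSG10091.4 had 478 in head and 26.4 in head plus chaetae, and OFUSG10091.2 had 18492 in blood vessel against 154 in head. In OFUSG07825 the member OFUSG07825.2 had 673 in head and 13.9 in midgut, while OFUSG07825.3 had 483 in midgut and 12.6 in head. The sums of OFUSG13041, OFUSG13586 and OFUSG25246 were highest outside the head in the body wall, the blood vessel and the ovary, with gene ratios of 1.71, 1.05 and 1.10. For these genes head restriction is a property of the isoform estimate and not of the gene. In contrast, OFUSG18223.3 and OFUSG14769.2 kept the rule as genes, with ratios of 9.07 and 9.35, although a second isoform had 426 and 297 in head.

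**Figure D5:**
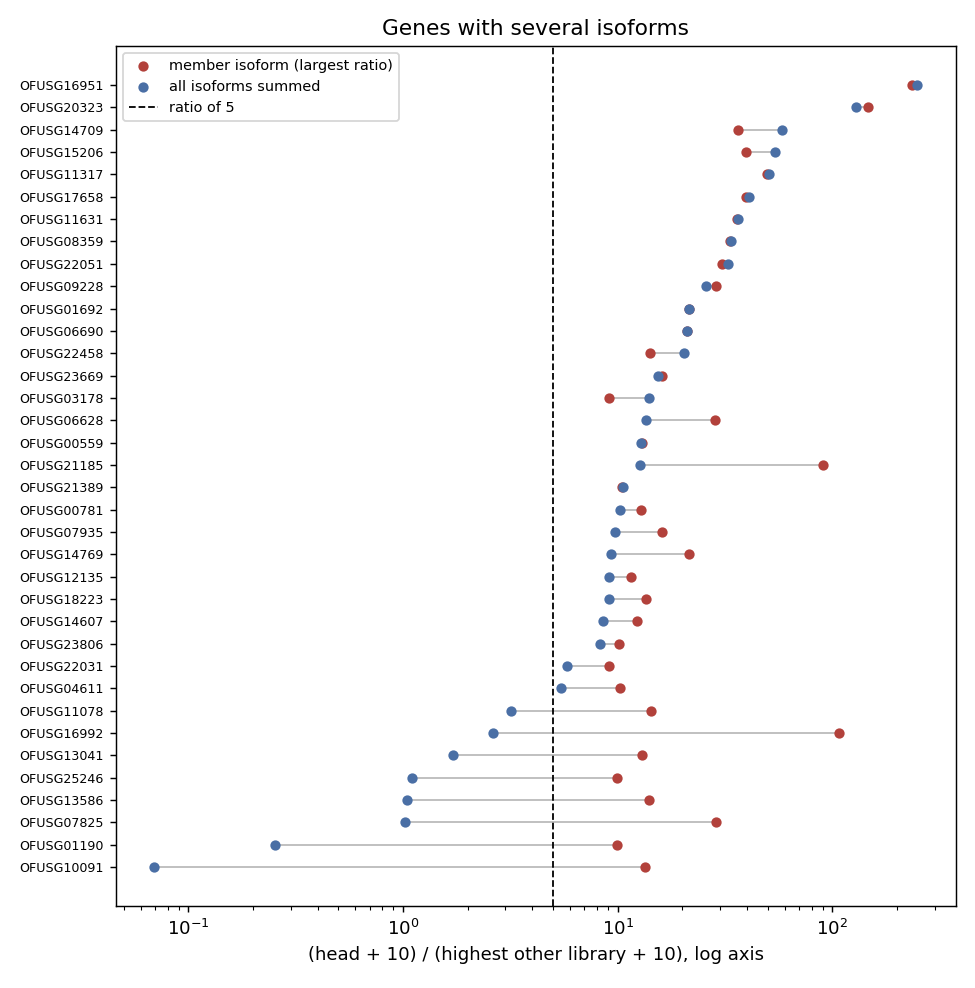
Ratio of head plus 10 over the highest other library plus 10 (x, log axis) for the 36 genes of members that have several isoforms (y), for the member isoform with the largest ratio (red) and for the sum of all isoforms (blue). The dashed line marks a ratio of 5. The sums of 28 genes lie to the right of it and those of 8 to the left, the lowest at 0.0693 for OFUSG10091.

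Many members also carried neighbouring gene numbers, a feature that the rule did not use. Of the 189 genes, 42, or 22.2%, had a number directly before or after that of another member gene, while 1.36% of the other 9964 genes with a transcript of at least 100 in head stood next to a member gene. These 42 formed 16 pairs, 2 runs of 3 and 1 run of 4. The sources used here do not say whether following numbers mean neighbouring genes on a chromosome, and reads shared between similar copies could not be examined without their sequences. The run of 4 held OFUSG23314.1, OFUSG23315.1, OFUSG23316.1 and OFUSG23317.1, with head values of 184, 146, 206 and 1469.7. In the head plus chaetae they had 1.80, 0, 0 and 1.20, and no value outside the head exceeded 6.15, in the ovary, for OFUSG23317.1. All 4 were thus at the level of a few reads outside the head, with 1 of them several times more abundant in the head than the others.

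The runs of 3 were seen after their values were known. OFUSG04082.1, OFUSG04083.1 and OFUSG04084.1 had 34199, 1603 and 1495 in head and all had the blood vessel second, with 239, 51.4 and 14.4. In the head plus chaetae they had 13.2, 1.80 and 3.01. OFUSG14826.1, OFUSG14827.1 and OFUSG14828.1 had 398, 499 and 972 in head, with 16.4, 24.6 and 21.9 in ovary and 10.4, 15.2 and 23.7 in blood vessel. Their head plus chaetae values were 5.39, 4.20 and 0.600, below the ovary and blood vessel in each. With the highest member of each gene, the head level of the highest gene of a run was between 1.11 and 36.9 times that of the lowest, with a median of 3.84, and under 2 times in 5 of the 19 runs. In 16 of the 19 runs the members did not share 1 second library. Some of these second places rest on a few reads, as with 1 midgut read for OFUSG07485.1 and 3 blood vessel reads for OFUSG07486.1. The count therefore does not show that the members of a run differ outside the head. Of the members with the largest ratios or head levels, 4 belonged to pairs, and their partners are given here although their values were seen first. Next to OFUSG15205.1 stood OFUSG15206, whose members OFUSG15206.2 and OFUSG15206.3 had 387 and 401 in head, with no read elsewhere for the former and at most 6.43 elsewhere for the latter. Next to OFUSG07486.1 stood OFUSG07485.1, with 150.4 in head, 0.662 in midgut and 0 in the other 7. Next to OFUSG19417.1 stood OFUSG19416.1, with 648 in head, 1.79 in body wall and 0 in the other 7. Each of these partners was lower in the head than the leading member and, like it, held at most 13 reads in any other library. Next to OFUSG11317.1 stood OFUSG11318.1, with 1506 in head, 44.1 in head plus chaetae, 0.602 in body wall and 0 in the other 6. This pair shared the head plus chaetae as the only other library above a few reads.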

How the data were processed

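RNA of 9 dissected adult tissues was sequenced on the BGISEQ-500 platform, 1 library per tissue. According to the methods, the authors trimmed adaptors with trimmomatic, pseudo-aligned the reads to filtered gene models with kallisto and normalized the read counts with DESeq2. The submitters' processing notes name kallisto 0.44.0, DESeq2 1.34.0 and R 4.1.2, and the methods give other versions of kallisto and DESeq2. The sources used here do not give how transcript estimates went from one tool to the next. Each deposited value is the signal of 1 transcript in 1 library, read here as its count over the size factor of that library. This scale is meant to hold most genes level between libraries. The testis and the retractor muscle differ most between it and scaling to the library sum, by -3.62 and -2.51 on the log2 scale.

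The value of 1 read was estimated as the least-squares step of values of up to 20 reads. In the 9 libraries, 93.1% to 100% of them came out whole to 0.1 read, and the scatter leaves room for a further factor per transcript, such as a length correction, so the recovered reads are approximate. Exact Poisson intervals (95%, scipy 1.17.1) and a floor of 3 reads cover counting error only. Transcript length was not used, so levels of different transcripts include their length.

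Members were selected with a head minimum of 100, a pseudocount of 10 and a ratio of 5, and ranked by the ratio. Transcripts were named by rule: the 10 largest ratios, the 10 largest head values, 3 members and 3 transcripts on either side of the limit, the highest member of each other library, up to 10 members of genes with several expressed isoforms, and the longest run of following gene numbers. Others are marked as named after their values were seen. The members, the lists and the rule for names were chosen with earlier results of these data known. No test between tissues was run. Alternatives changed the pseudocount, head minimum, ratio, scaling, isoform summing and each library in the rule. The scripts (Python 3.11.15, pandas 2.3.3) were tested on simulated data.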

Additional observations from a re-analysis of the deposited data

How the results depend on the processing

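The count of transcripts meeting the rule, 375, became 200 with a pseudocount of 50, 674 with a ratio of at least 3, 171 with a ratio of at least 10 and 826 without the head plus chaetae library in the rule. It lay between 385 and 413 when any 1 of the other 7 libraries was left out of the rule, and between 289 and 452 under the other settings of pseudocount, head minimum, scaling and isoforms. Of the 200 members, 147 still met the rule with a pseudocount of 50, 158 with a head minimum of 200, 171 with a ratio of 10 and 192 as genes with isoforms summed. With the lower bound of the head interval set against the upper bound of every other library, 251 transcripts and 174 members met it. With isoforms summed, the median head level was 648 in place of 537, the median head plus chaetae level 12.6 in place of 6.59, and 17 in place of 35 had no read in the head plus chaetae. Over all 375 transcripts these medians were 441 and 18.6, and the head plus chaetae was second for 175. By construction, summing adds the reads of isoforms that are no members, and the wider set adds transcripts with lower ratios. Low levels are least detectable in the testis, although it held the most approximate reads, 22177997, because 1 read was worth 5.53 there. The floor of 3 reads is a level of 16.6 in testis, and the upper bound of the interval at no read is 20.4. No paired analysis was possible because each tissue has 1 library.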
